A study of Mus musculus with 10 samples.

Results

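The 10 genes described here mark adipocytes, the fat cells that surround the mouse aorta. They were Adipoq, Lep, Plin1, Plin4, Cidec, Fabp4, Lpl, Pparg, Ucp1 and Cidea, taken by symbol from 55453 gene symbols of the count table, and all 10 passed the filter on low counts that left 14614 genes for testing. RNA was sequenced from whole aortae of male C57BL/6 mice, 5 young at 14.5 weeks and 5 old at 92.5 weeks, with 1 library per mouse and no treatment named in the labels. The labels and the study's methods describe the removal of the fat around the vessel before RNA was extracted. Counts on genes summed per library to between 20560415 and 22833794 in young and between 19640401 and 22886153 in old aortae.

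White adipocytes store triglyceride in 1 large lipid droplet and release hormones, whereas brown adipocytes hold many small droplets and burn fatty acids for heat. PPARG, a nuclear receptor that pairs with RXR, switches on most genes of the mature fat cell together with the C/EBP factors. The fat around the mouse aorta is known to resemble brown fat along the thoracic aorta and to be whiter along the abdominal aorta. UCP1, the mitochondrial uncoupling protein, is the defining product of thermogenic adipocytes, while adiponectin and leptin are hormones of fat cells.

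Promoters are shown for 5 members, since Adipoq, Plin1 and Cidec moved together from library to library while Plin4 and Ucp1 had orders of their own. The sequences came from the RefSeq promoter table of GRCm38.p6, in which 7 of the 10 members were found and Fabp4, Lpl and Cidea were not. The bases before the transcription start are printed 5′ to 3′ on the strand of the gene, without any base that the GENCODE M21 annotation places inside the gene. The stretches lie at chr16:23146286-23146535 on the plus strand for Adipoq, chr7:79732904-79733026 on the minus strand for Plin1, chr6:113435761-113436010 on the minus strand for Cidec, chr17:56109804-56110032 on the minus strand for Plin4 and chr8:83290098-83290347 on the plus strand for Ucp1. Capitals mark GCAAT, the core of C/EBP sites, and AGGTCA, a part of the paired site bound by PPAR and RXR. The reverse complements ATTGC and TGACCT are marked too.
Adipoq: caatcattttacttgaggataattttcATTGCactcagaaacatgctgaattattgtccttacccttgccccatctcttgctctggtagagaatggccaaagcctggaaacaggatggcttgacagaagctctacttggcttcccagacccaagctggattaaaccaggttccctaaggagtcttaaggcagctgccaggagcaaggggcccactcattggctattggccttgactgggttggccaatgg
Plin1: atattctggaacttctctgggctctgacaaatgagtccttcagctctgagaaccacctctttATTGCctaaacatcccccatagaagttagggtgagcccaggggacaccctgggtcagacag
Cidec: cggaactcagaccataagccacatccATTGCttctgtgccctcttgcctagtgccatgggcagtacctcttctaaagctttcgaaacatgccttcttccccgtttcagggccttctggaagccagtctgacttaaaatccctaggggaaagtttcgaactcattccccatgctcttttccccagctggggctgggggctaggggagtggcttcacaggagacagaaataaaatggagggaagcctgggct
Plin4: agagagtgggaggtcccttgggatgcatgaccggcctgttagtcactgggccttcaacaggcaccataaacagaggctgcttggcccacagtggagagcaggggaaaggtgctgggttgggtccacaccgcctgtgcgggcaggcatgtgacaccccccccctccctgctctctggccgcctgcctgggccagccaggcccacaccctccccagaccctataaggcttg
Ucp1: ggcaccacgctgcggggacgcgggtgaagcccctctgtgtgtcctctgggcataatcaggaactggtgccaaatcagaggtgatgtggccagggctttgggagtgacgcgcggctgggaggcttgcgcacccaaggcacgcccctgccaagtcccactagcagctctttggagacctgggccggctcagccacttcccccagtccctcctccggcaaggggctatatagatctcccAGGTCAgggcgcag

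GCAAT on either strand occurred 1 time each in the Adipoq, Plin1 and Cidec stretches, and not in those of Plin4 and Ucp1. AGGTCA on either strand occurred 1 time in the Ucp1 stretch and in none of the other 4. In the full 250 bases before the Plin1 start, 127 of which lie inside the annotated gene and are not printed, GCAAT occurred 3 times. Pparg, which also followed Adipoq (r = 0.87), is not shown. GCAAT occurred in none of its 3 full windows, and AGGTCA occurred 1 time each in those at chr6:115360894-115361143 and chr6:115362099-115362348. The Lep window held neither, and the other Cidec window held GCAAT 1 time. The 5 stretches were chosen by how the genes moved, so their motifs are no test of that. Over the same full windows of all 32851 promoters in the table, 23.1% held GCAAT, 14.0% held AGGTCA and 12.4% held TATAAA, the TATA box, which none of the 5 stretches held in this exact spelling. A match of letters describes the window and not a bound site.

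Adipocyte transcripts were detected in every library, although the fat had been removed before extraction. The 10 members together took 0.0731% to 0.180% of the counts of a library. Without Plin4, which was nearly level across libraries, the share was 0.131% in young replicate 1, 0.0680% in young replicate 4 and 0.0604% in old replicate 2. In the other 7 libraries it lay between 0.0288% in old replicate 1 and 0.0455% in young replicate 3. One young library thus carried more adipocyte transcript than any other, and the next highest were 1 young and 1 old library. Fewer fat cells and less RNA per fat cell cannot be told apart in bulk RNA.

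Young replicate 1 stood apart before any comparison of ages. It was the highest of all 10 libraries for 9 of the 10 members, and for 12.8% of all genes tested. The exception was Plin4, which was highest in old replicate 2. Levels are given as normalized counts, the count divided by the size factor of the library. Young replicate 1 was at 1.04 times the median of the other 4 young libraries for Plin4, 2.29 to 3.42 times for 7 members, 7.23 times for Ucp1 and 7.51 times for Lep. The same ratio exceeded 2 for 9 of 10 members and for 2.74% of all genes tested. At the low end, old replicate 1 was the lowest library for 6 of the 10 members. The comparison of the ages is therefore given with and without young replicate 1 for each member.

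**Figure D1:**
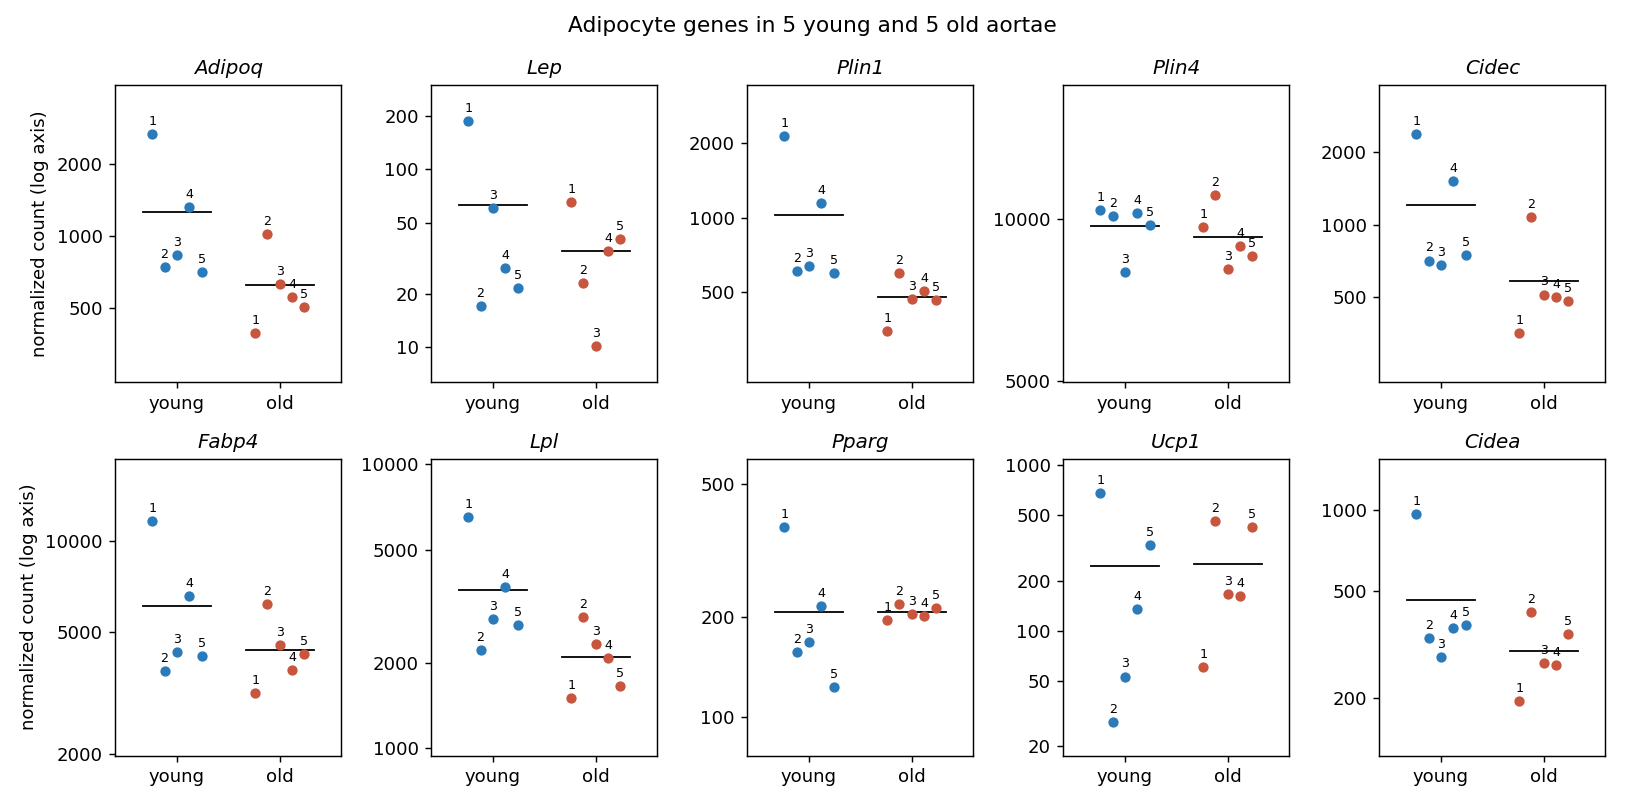
Normalized counts (log axis, a separate scale for each gene) of the 10 adipocyte genes in 5 young (blue) and 5 old (red) aortae, with the replicate number above each point and a line at the mean of each group. Young replicate 1 is the highest point in 9 of the 10 panels, and the Plin4 points lie between 7967 and 11091.

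Young replicate 1 also carried more of some other cells' transcripts, and their part in the adipocyte values was not tested. Among 14 tested endothelial markers, 6 were above 2 times the median of the other young libraries, with Gpihbp1, the capillary protein that anchors LPL, at 242 normalized counts against 76.5 to 106 in the other young aortae and 329 in old replicate 2, the highest of all. All 4 tested lymphoid markers and 2 of 6 Schwann cell markers passed the same ratio. No marker of 12 preadipocyte and adventitial fibroblast genes, 12 macrophage, 8 smooth muscle or 8 tested striated muscle genes did so. The summed markers of endothelial cells ranged from 22400 to 37828 normalized counts in young and 11949 to 27075 in old aortae, and those of smooth muscle from 800307 to 949962 and from 740029 to 905428. The 7 mesothelial markers summed to between 8.18 and 41.9 in all libraries, and none of them passed the filter.

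None of the 10 members was called different between old and young aortae at an adjusted p below 0.05 by edgeR's quasi-likelihood test, against 11.5% of all genes tested, of which 4.99% were lower and 6.48% higher in old. Adipoq, Plin1, Cidec and Lpl had an unadjusted p below 0.05, as did 26.7% of all genes. DESeq2 called 1 member, Plin1, and 15.8% of all genes, and limma-voom called none with or without sample weights. The fitted log2 fold change of old over young was negative for 8 of 10 members with a median of −0.70, whereas over all genes tested the median was 0.0034 and 49.2% were negative. Without young replicate 1 the median of the members was −0.14, and none was called against 16.1% of genes tested. An unadjusted p below 0.05 was then found for 2, against 30.2% of genes tested. They were Plin1, lower in old aortae at −0.64, and Pparg, higher at 0.32.

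**Figure D2:**
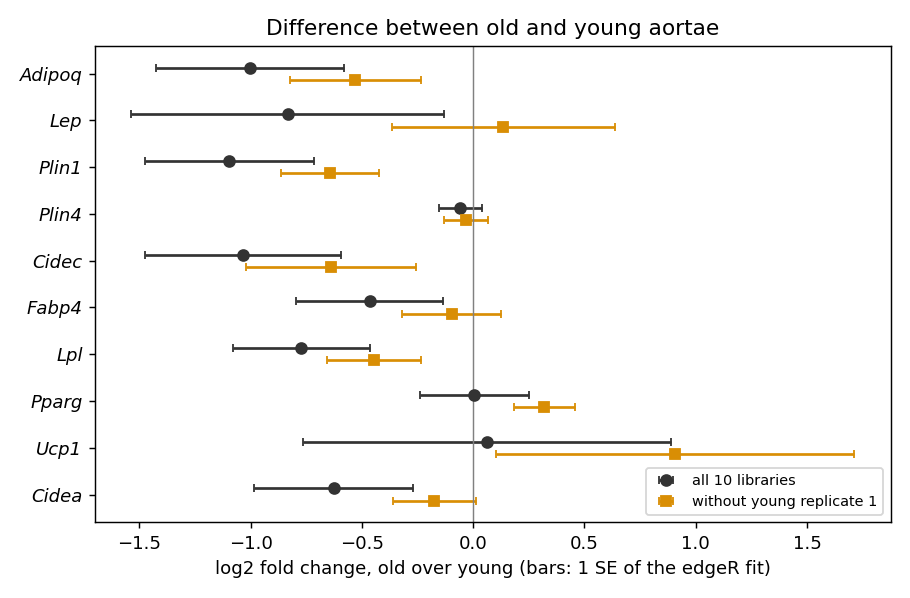
Log2 fold change of old over young for the 10 adipocyte genes from edgeR, with bars of 1 standard error, from all 10 libraries (circles) and without young replicate 1 (squares). Every square lies to the right of its circle, by 0.02 for Plin4 and by 0.97 for Lep. Young replicate 1 was the highest young library for each of these genes, so leaving it out lowers every young mean.

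Adipoq encodes adiponectin, the most abundant hormone of adipocytes, and lies at chr16:23146536-23158028. Young replicates 1 to 5 held normalized counts of 2665, 744, 834, 1314 and 709, and old replicates 1 to 5 held 394, 1021, 633, 557 and 506. Young replicates 1 and 4 and old replicate 2 were the highest of their groups, and old replicate 2 lay above 3 of the 5 young libraries. The means were 1253 ± 826 (SD, n = 5) in young and 622 ± 239 (SD, n = 5) in old aortae. Old over young, the log2 fold change was −1.003 with a standard error of 0.42 (edgeR adjusted p = 0.165), and −0.53 with a standard error of 0.30 without young replicate 1 (edgeR adjusted p = 0.274).

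Lep encodes leptin, the hormone that reports the size of fat stores, at chr6:29060220-29073877. It was the least abundant member, at 0.874 counts per kilobase of exon per 1000000 counts in young and 0.485 in old aortae. Normalized counts were 186, 17.1, 60.8, 28.0 and 21.5 in young replicates 1 to 5 and 66.0, 22.9, 10.3, 34.7 and 40.8 in old replicates 1 to 5. Both groups overlapped over most of their range, and the second highest library was old replicate 1, which was the lowest for 6 other members. For old over young the fit gave a log2 fold change of −0.83 with a standard error of 0.70 (edgeR adjusted p = 0.501). When young replicate 1 was left out it was 0.13 with a standard error of 0.50, on the other side of 0.

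Plin1 encodes perilipin 1, the protein that coats the lipid droplet of fat cells and gates the access of lipases, at chr7:79720218-79732903. Young replicates 1 to 5 were at 2139, 611, 638, 1145 and 599 normalized counts and old replicates 1 to 5 at 349, 597, 469.7, 505 and 466. On this scale it was the only member whose groups did not overlap, with 599 in the lowest young and 597 in the highest old library. The separation depended on the scaling. In counts per 1000000 with TMM factors, the scaling of the edgeR fit, the lowest young library was at 27.5 and the highest old one at 27.8, and with library size alone at 26.9 and 27.9, so that the groups overlapped. Non-overlapping groups were found in 9.92% of all genes tested with the size factors, and 1 of 10 members is close to that background. Means were 1026 ± 663 (SD, n = 5) in young and 477 ± 89.2 (SD, n = 5) in the old. Its log2 fold change was −1.10 with a standard error of 0.38 (edgeR adjusted p = 0.0991, DESeq2 adjusted p = 0.0359). Leaving out young replicate 1 gave −0.64 with a standard error of 0.22 (edgeR adjusted p = 0.0806).

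Cidec encodes a droplet protein that fuses small droplets into a large one, at chr6:113424634-113435760. Its normalized counts were 2374, 709, 678, 1516 and 750.0 in young replicates 1 to 5 and 356, 1079, 513, 501 and 480.3 in old replicates 1 to 5. Old replicate 2 lay far above the other 4 old libraries and above 3 young ones. Cidec had a log2 fold change of −1.04 with a standard error of 0.44 (edgeR adjusted p = 0.169), and −0.64 with a standard error of 0.38 without young replicate 1.

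Plin4, a perilipin that coats small and new droplets and is also known from muscle, was nearly level across the libraries. It lies at chr17:56100591-56109803. Normalized counts were 10376, 10134, 7967, 10237 and 9745 in young replicates 1 to 5 and 9669, 11091, 8077, 8918 and 8549.8 in old replicates 1 to 5. The highest library was 1.30 times the lowest in young and 1.37 times in old aortae, with full overlap. Old over young it had a log2 fold change of −0.06 with a 95% interval from −0.24 to 0.13 (edgeR adjusted p = 0.756), and −0.03 with a standard error of 0.10 without young replicate 1. Per kilobase of exon and 1000000 counts, Plin4 was the most abundant member, at 76.7 ± 8.22 (SD, n = 5) in young and 74.9 ± 9.21 (SD, n = 5) in old aortae.

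Fabp4 encodes the fatty acid carrier of the adipocyte cytosol, which capillary endothelium and macrophages also make, at chr3:10204088-10208576. Young replicates 1 to 5 held 11599, 3736, 4322, 6582 and 4184.5 normalized counts and old replicates 1 to 5 held 3149, 6204, 4550.1, 3750.3 and 4247. The groups overlapped widely, since old replicates 2 and 3 lay above 3 young libraries. Fabp4 had a log2 fold change of −0.47 with a standard error of 0.33 (edgeR adjusted p = 0.418), and −0.10 without young replicate 1.

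Lpl encodes lipoprotein lipase, which frees fatty acids from circulating triglyceride, at chr8:68880491-68907448. Levels were 6543, 2214, 2858.5, 3691 and 2719 normalized counts in young replicates 1 to 5 and 1509, 2912, 2329, 2080.5 and 1659.6 in old replicates 1 to 5. Only old replicates 2 and 3 reached into the young range. The log2 fold change was −0.77 with a standard error of 0.31 (edgeR adjusted p = 0.144), and −0.45 with a standard error of 0.21 without young replicate 1 (edgeR adjusted p = 0.195). Of its 50-base transcript windows, 1.40% also occurred in transcripts of other genes, so that a small part of its count could be shared.

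Pparg, at chr6:115360951-115490399, encodes the receptor that drives adipocyte differentiation. Normalized counts were 371, 157, 168, 215 and 123 in young replicates 1 to 5 and 196, 219, 204, 201 and 212 in old replicates 1 to 5. The old libraries lay within 1.12 times of each other, whereas the young ones spanned a 3.02-fold range on both sides of them. The log2 fold change was 0.00 with a standard error of 0.25 (edgeR adjusted p = 0.994), and 0.32 with a standard error of 0.14 without young replicate 1 (edgeR adjusted p = 0.136).

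Ucp1, at chr8:83290352-83298452, had the widest fold range of all members in young aortae and in old ones. The normalized counts were 679.8, 28.2, 52.8, 135 and 327 in young replicates 1 to 5 and 59.96, 458, 166, 162 and 423 in old replicates 1 to 5. The highest library was 24.1 times the lowest in young and 7.63 times in old aortae. Young replicates 1 and 5 and old replicates 2 and 5 were high, and young replicates 2 and 3 and old replicate 1 were low, so that both groups held aortae at either end. The log2 fold change was 0.06 with a 95% interval from −1.56 to 1.68 (edgeR adjusted p = 0.975), and 0.91 with a standard error of 0.80 without young replicate 1.

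Cidea, a droplet protein that is abundant in brown adipocytes, lies at chr18:67343604-67367785. It was at 968, 335, 285, 363 and 373 normalized counts in young replicates 1 to 5 and at 196, 419.5, 271, 265 and 345 in old replicates 1 to 5. Young replicate 1 was the only library above 419.5. The log2 fold change was −0.63 with a standard error of 0.36 (edgeR adjusted p = 0.300), and −0.17 with a standard error of 0.19 without young replicate 1.

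The order of the members by level per kilobase of exon and 1000000 counts was led by Plin4, Fabp4 and Adipoq in young aortae, at 76.7, 62.5 and 42.0. Cidec at 30.0, Cidea at 19.3, Lpl at 15.9 and Plin1 at 10.2 followed. Ucp1 at 6.94, Pparg at 3.23 and Lep at 0.874 were the lowest. In old aortae Plin4 at 74.9 and Fabp4 at 45.7 led again, followed by Adipoq at 21.1, Cidec at 14.8, Cidea at 12.6 and Lpl at 9.37. Ucp1 at 7.28 and Plin1 at 4.80 came next in old aortae, with Pparg at 3.27 and Lep at 0.485 last. In young aortae every pair of neighbours in this order overlapped in its library values. In old aortae Plin4 lay above Fabp4 and Pparg above Lep without overlap, and the other neighbours overlapped.

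The libraries of 1 group differed widely for most members. In young aortae 9 of the 10 members had an SD of log2(normalized count + 1) above that of 94.2% or more of all genes tested, from 0.60 for Lpl and Pparg to 1.85 for Ucp1. Plin4, with an SD of 0.16, was above 50.7% of genes. Much of this rested on young replicate 1. Among the other 4 young libraries the SD was 0.17 for Cidea, above 62.0% of genes, 0.30 for Lpl, above 80.9%, and 0.41 for Adipoq, above 88.2%. Only Lep at 0.77, Plin1 at 0.45, Cidec at 0.55 and Ucp1 at 1.53 then lay above 90% of genes. In old aortae the SD ranged from 0.06 for Pparg, above 7.92% of genes, to 1.19 for Ucp1, above 99.7%. Counting error alone would give a coefficient of variation of 1.02% to 16.9% for the members, against 10.2% to 113% observed in young and 4.47% to 69.4% in old aortae. The 4.47% was that of Pparg in old aortae, below the 6.93% that counting error alone would give.

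The mean absolute deviation from the group median was smaller in old than in young aortae for 9 of the 10 members, with Plin4 as the exception. By an exact permutation test over the 10 libraries (two-sided, 252 splits) no member passed an unadjusted p of 0.05, against 0.431% of all genes tested. Pparg came closest, at 0.41 in young and 0.05 in old aortae on the log2 scale (exact permutation p = 0.0952, n = 5 per group). The median library of each group has no deviation by definition, so this test cannot reach the 0.0079 that 5 against 5 libraries otherwise allow. Few genes of any kind passed, and the lack of a passing member cannot decide whether the spread differed. Without young replicate 1 the deviation was smaller in old aortae for 3 members, Plin1, Pparg and Ucp1, and larger for the other 7, and again none passed. The highest young library was then 1.85 times the lowest for Adipoq, 1.91 times for Plin1 and 1.31 times for Cidea. Ucp1 still spanned 11.6-fold among the 4 remaining young libraries.

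**Figure D3:**
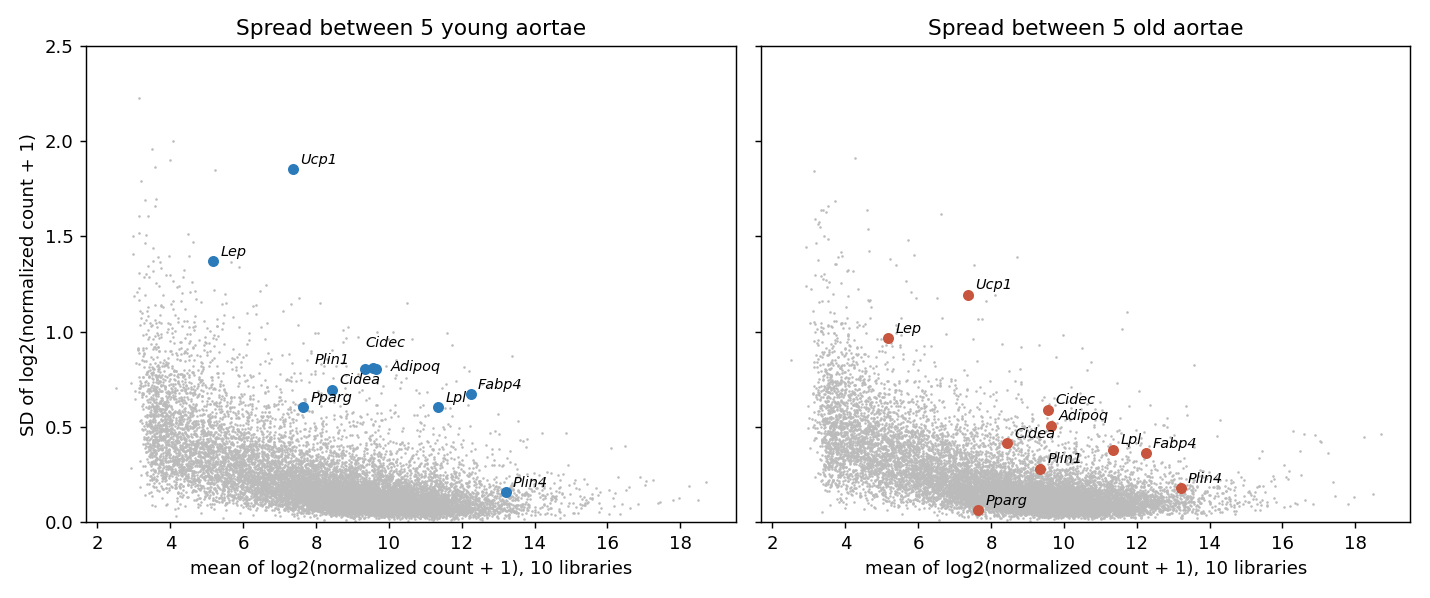
SD of log2(normalized count + 1) among 5 young (left) and 5 old (right) libraries against the mean of that value over all 10 libraries, for all genes tested (grey) and the 10 adipocyte genes (coloured and named). Ucp1 lies at 1.85 in young and 1.19 in old aortae, Plin4 lies within the grey cloud in both, and Pparg lies at 0.60 in young and 0.06 in old.

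Most members moved together from library to library. After the group means were removed, the log2 counts per 1000000 of the 10 libraries correlated with those of Adipoq at r = 0.98 for Fabp4, 0.97 for Lpl, 0.97 for Cidec and 0.95 for Plin1, with Spearman's rho from 0.88 to 0.94. These points share 1 scaling per library and are given as a description. Without young replicate 1 and old replicate 1, the libraries farthest from the Adipoq median, the same 4 values of r were 0.94, 0.91, 0.96 and 0.86. Pparg and Cidea had r of 0.87 each, which became 0.69 and 0.50 without those libraries. Plin4 at 0.44, Ucp1 at 0.67 and Lep at 0.38 had lower values of r. Without those libraries Plin4 was at 0.60, above Cidea, while Ucp1 and Lep were at 0.21 and −0.09. The median r over all genes tested was 0.0014, and 83 genes reached 0.9.

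Outside the members, the 10 genes most like Adipoq included Car3, Slc36a2, Cfd, Cebpa, Ces1d, B3galt2, Cyp2e1, Lgals12 and Chst1, and the 10 had r from 0.97 to 1.00 over the 10 libraries. Car3 is a carbonic anhydrase of adipocytes. It averaged 7656 ± 4924 (SD, n = 5) normalized counts in young and 3427 ± 1196 (SD, n = 5) in old aortae. Its log2 fold change was −1.15 (edgeR adjusted p = 0.107, DESeq2 adjusted p = 0.0435), and −0.69 without young replicate 1. Cfd, the adipocyte protease adipsin, averaged 7674 ± 4999 (SD, n = 5) and 3030 ± 1585 (SD, n = 5). Its log2 fold change was −1.33 (edgeR adjusted p = 0.105, DESeq2 adjusted p = 0.0394), and −0.87 without young replicate 1. Limma-voom with quality weights also called Cfd (adjusted p = 0.0432). Cebpa, a partner of PPARG in fat cell differentiation, averaged 510.1 ± 247 (SD, n = 5) and 352 ± 64.0 (SD, n = 5).

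**Figure D4:**
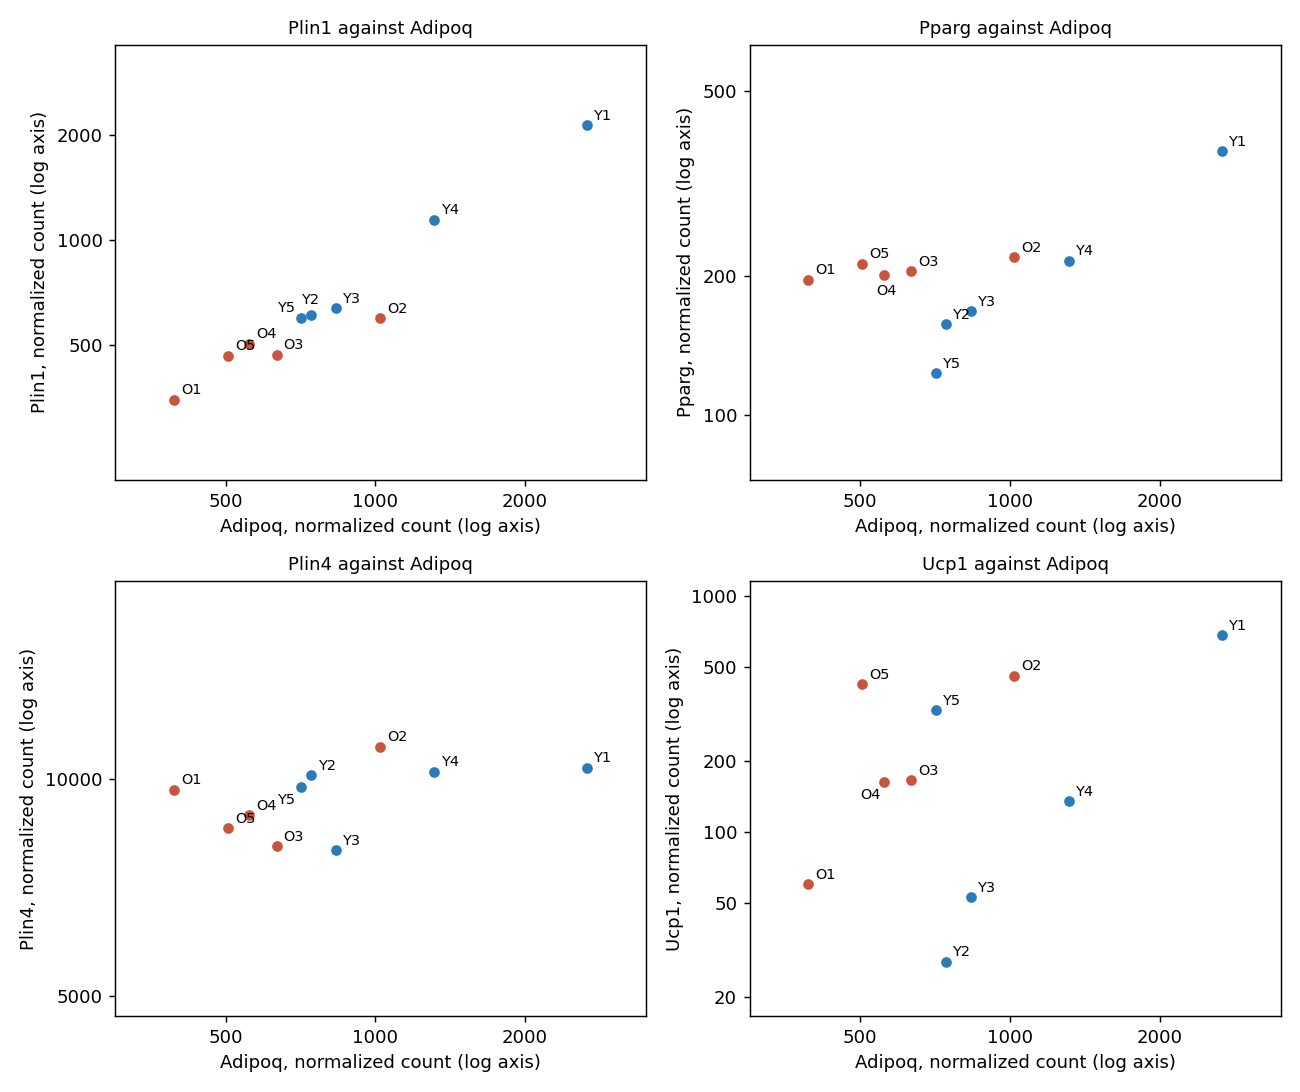
Normalized counts of Plin1, Pparg, Plin4 and Ucp1 against Adipoq in each of 10 libraries (both axes log, young in blue as Y1 to Y5, old in red as O1 to O5). Plin1 is higher where Adipoq is higher, Plin4 stays between 7967 and 11091, and Ucp1 ranges from 28.2 to 679.8 with high and low values at similar Adipoq levels.

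Because several members moved together, the ratio of each other member to Adipoq was taken within each library, per kilobase of exon. As a fold, the range over both ages was narrowest for Cidec, at 603 to 858 per 1000 Adipoq, followed by Lpl at 324 to 505, Plin1 at 174 to 274 and Fabp4 at 1339 to 2584. Cidea was at 342 to 846, highest in old replicate 5. Pparg was at 65.1 to 233 and Plin4 at 931 to 5870, both lowest in young replicate 1 and highest in old replicate 1. Lep was at 6.67 to 69.0. Ucp1 was at 215, 32.0, 53.5, 86.8 and 389 per 1000 Adipoq in young replicates 1 to 5 and at 129, 378, 221, 245 and 706 in old replicates 1 to 5. The ratio was thus low in young replicates 2, 3 and 4, and highest in old replicate 5, where Adipoq itself was among the lowest. Relative to Adipoq, young replicate 1 was in the middle of the Ucp1 range, although it had the highest Ucp1 count.

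A list of 40 adipocyte genes of lipid handling and hormones outside the members, of which 39 were tested, was described in the same way. It includes Car3, Cfd and Cebpa. Adrb3 is shared with the list of thermogenic genes, and Cebpa and Cebpb with the list of PPARG partners and regulators. Ebf2 is on both of those other lists. Young replicate 1 was the highest of 10 libraries for 36 of the 39 tested genes. By edgeR, 6 (15.4%) were called, all lower in old aortae, against 11.5% of all genes called and 4.99% called lower. Of the 39, 34 had a negative log2 fold change, and the median was −0.47. The called genes were Cav1, a caveolar protein at −0.47, Fitm2, a droplet-forming protein at −0.34, Pde3b, the phosphodiesterase of insulin action at −0.57, Acvr1c, an activin receptor at −1.43, Acly, which makes acetyl-CoA for lipogenesis at −0.50, and Fasn, fatty acid synthase at −1.33. Every young library lay above every old one for Fasn, at 5806 to 20886 normalized counts in young and 2596 to 5165 in old aortae (edgeR adjusted p = 0.0479). Cav1 is also abundant in endothelial and smooth muscle cells.

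Of that list, 9 genes (23.1%) were called without young replicate 1, 8 lower and 1 higher, against 16.1% of all genes, of which 7.73% were lower and 8.33% higher. Negative log2 fold changes then numbered 29 of 39, with a median of −0.18. The 6 genes above were among the 8 lower ones, joined by Acaca, the carboxylase ahead of Fasn, at −0.46 and Pnpla3 at −0.98, while Lpin1 was higher at 0.26. Fasn was then at −0.90 (edgeR adjusted p = 0.0302) and Acvr1c at −1.11 (edgeR adjusted p = 0.0149). The summed list ranged from 74816 to 169916 normalized counts in young and from 54720 to 69817 in old aortae, and without young replicate 1 the highest young sum was 100185.

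**Figure D5:**
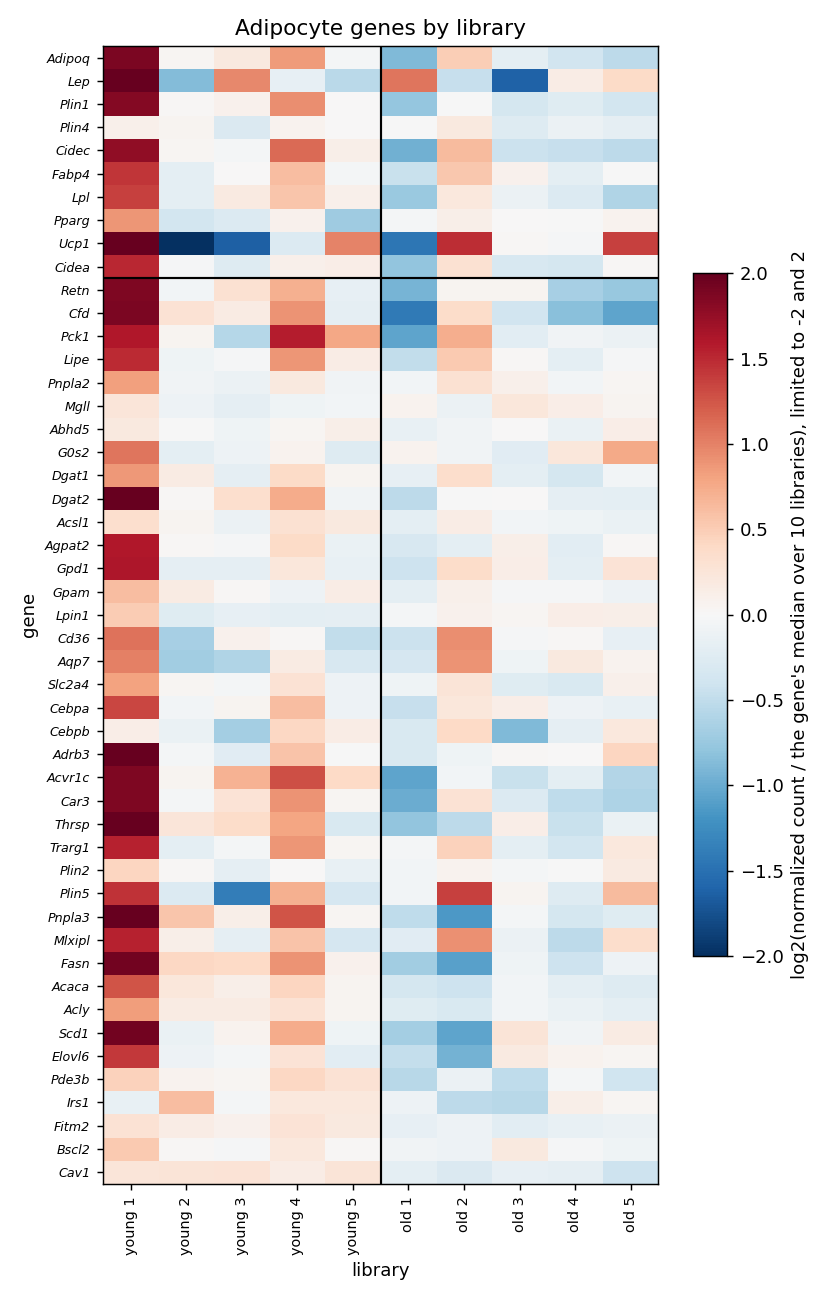
Log2 ratio of the normalized count to the median of that gene over 10 libraries, limited to −2 and 2, for the 10 adipocyte genes (above the line) and 39 tested genes of adipocyte lipid handling and hormones (below it) in 5 young and 5 old libraries. The column of young replicate 1 is red for most genes, and it holds the highest value for 9 of the 10 genes above the line and 36 of the 39 below.

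Thermogenic genes did not share 1 pattern. Of 24 genes listed for brown adipocytes, 19 were tested and 2 (10.5%) were called, with a median log2 fold change of −0.04. Both were lower in old aortae, against 11.5% of all genes called and 4.99% called lower. They were Dio2, which activates thyroid hormone, at −0.67 (edgeR adjusted p = 0.0104) and Gk, glycerol kinase, at −0.61 (edgeR adjusted p = 0.00184), and both were called again without young replicate 1, at −0.67 and −0.69. Cox8b, a cytochrome oxidase subunit of brown fat and muscle, was at 476, 81.5, 68.8, 114 and 97.3 in young replicates 1 to 5 and 93.9, 301, 120.2, 116 and 182 in old replicates 1 to 5, highest in young replicate 1 and old replicate 2 as Ucp1 was. Without young replicate 1, Cox7a1, another subunit, was higher in old aortae at 1.08, as was Ppara, a fatty acid sensor, at 0.79, so that 4 genes (21.1%) were called, 2 in each direction, with a median of 0.14, against 16.1% of all genes. Young replicate 1 was the highest library for 8 of the 19 tested genes.

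Around PPARG, 1 of 20 partners and regulators (5%) was called, lower in old aortae, against 11.5% of all genes called and 4.99% called lower. It was Zfp423, a factor of fat cell precursors, at −0.53 (edgeR adjusted p = 0.00236), and at −0.47 without young replicate 1. Of 12 tested preadipocyte and adventitial fibroblast markers, 2 (16.7%) were called. Both were lower in old aortae, against 11.5% of all genes called and 4.99% called lower. They were Mfap5, a microfibril protein, at −1.03 and Pi16 at −0.58. Both were called again without young replicate 1, at −1.05 and −0.52, and Dpp4, a surface protein of precursor cells, was called higher at 0.94 (edgeR adjusted p = 0.0414). That made 3 (25%), against 16.1% of all genes. DESeq2 also called Dpp4 higher, at 0.77 with all libraries.

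Endothelial markers were mostly lower in old aortae. Of 14 tested, 12 had a negative log2 fold change with a median of −0.43, close to the −0.47 of the adipocyte lipid and hormone list. EdgeR called only Tek (7.14%), at −0.87 (adjusted p = 0.0381), against 11.5% of all genes called and 4.99% called lower. An unadjusted p below 0.05 was found for 7 (50%), against 26.7% of all genes. DESeq2 called 5 of the 14 (35.7%), all lower, against 15.8% of all genes. Limma-voom called 3 (21.4%), against 11.3% of all genes, and 5 (35.7%) with quality weights, against 17.8%, all lower. The count rested on single libraries. Without old replicate 2 edgeR called 7 (50%), all lower, against 10.5% of all genes. None was called without young replicate 1, against 16.1% of all genes. There 9 of 14 were negative with a median of −0.24, and 6 (42.9%) had an unadjusted p below 0.05, against 30.2% of all genes. None was called either without young replicate 3 or 5 or old replicate 1, 3 or 5, against 8.59% to 10.2% of all genes. The count was 1 (7.14%) without young replicate 2 or 4 or old replicate 4, against 7.67% to 9.79% of all genes.

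Among other cells' markers, 6 of 12 macrophage genes (50%) were called higher, against 6.48% of all genes. They were led by Cd209f at 1.64, Gpnmb at 0.57, Trem2 at 1.44 and Cd68 at 0.83. The macrophage count was 7 (58.3%) without young replicate 1, all higher, against 8.33% of all genes called higher. Of 8 smooth muscle genes Smtn was called higher at 0.29, with 3 called without that library, 1 higher and 2 lower. Actc1 at −2.02 and Tnnt2 at 1.74 were called among 8 tested striated muscle markers (25%). Cd4 at 1.95 was called among 4 tested lymphoid markers (25%), again against 11.5% of all genes. Actc1, Tnnt2 and Cd4 were called again in the same directions without young replicate 1. Of 6 Schwann cell markers Pmp22 (16.7%) was called, at −0.40, against 11.5% of all genes. Without young replicate 1, Mbp, a myelin protein, at 0.85 and Sox10 at 0.77 were called higher beside Pmp22 at −0.36. These Schwann cell genes were 3 of 6 (50%), against 16.1% of all genes. With quality weights limma-voom called the same 3 genes in the same directions, against 17.8% of all genes. The summed macrophage markers ranged from 10781 to 12984 normalized counts in young and 14070 to 25242 in old aortae. Whether these cell types contributed to the member values was not tested.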

How the data were processed

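RNA was poly(A) selected from 10 mouse aortae and sequenced as stranded libraries. According to the submitters' processing notes and the methods, the authors trimmed reads with fastp 0.20.0, aligned them to GRCm38 with STAR 2.7.0f and counted them per gene with featureCounts of Subread 1.6.4. The deposited values are these raw counts, as the authors made them, without normalization. The strand setting and the handling of multiply aligned reads are not given in the sources used here. Groups were taken from the labels, and nothing but the replicate number links mice.

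Genes were filtered with filterByExpr and compared with the quasi-likelihood F test of edgeR 4.0.16 (TMM, robust, no covariate, R 4.3.3), adjusted by Benjamini-Hochberg over 14614 genes and called below 0.05. The unit of a level is the count divided by the DESeq2 1.42.0 size factor. Alternatives were DESeq2, limma 3.58.1 voom, other scalings and filters, the replicate block and omission of each mouse. Tests were tested on simulated counts. Members and lists were chosen with earlier results of these data known. Every member was named, with from each list up to 4 called genes per direction by smallest p, and the 10 genes most like Adipoq, of which 1 is not reported here. Acly, Fasn, Acaca, Pnpla3, Lpin1, Cox7a1, Cox8b, Ppara, Gpihbp1, Dpp4, Cnn1, Myocd, Mbp and Sox10 were singled out after their values were seen. So were the genes of the closing observations. Gene positions and exon lengths came from GENCODE M21, and the authors used M22, which was not used here. Totals of 19640401 to 22886153 counts per library limit the precision of Lep most, with counting error up to 16.9%. The p-values of the age comparison set the difference between the ages against the spread between these mice.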

Additional observations from a re-analysis of the deposited data

Results flagged for a closer look

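Among 20 groups of 5 libraries, 10 members in each age, 4 held a library whose gap to its nearest neighbour exceeded 0.71 of the range of the group, Dixon's 95% limit. For independent groups of normal values about 1 in 20 would pass. These groups share the same libraries, most members moved together and the counts were not put on a log scale, so the 4 are a description. Young replicate 1 was far above the other young libraries for Lep, at 186 normalized counts (gap 0.741 of the range), and for Cidea, at 968 (gap 0.871). Young replicate 3 was far below the other young libraries for Plin4, at 7967 (gap 0.738). Old replicate 2 was far above the other old libraries for Cidec, at 1079 (gap 0.783). Over all genes tested, young replicate 1 was a high outlier of this kind in 308 genes, and each of the other young libraries in 36 to 115.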

How the results depend on the processing

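No member was called under any alternative except Plin1 by DESeq2, where the log2 fold change was −1.10 (adjusted p = 0.0359) and the count of called members 1. Adipoq, Plin1, Plin4, Cidec, Fabp4, Lpl and Cidea kept a negative sign under all 19 alternatives. Lep was at 0.20 under limma-voom with quality weights and at −1.20 to 0.13 when 1 mouse was left out, Pparg at −0.0012 under DESeq2, −0.0011 with its size factors and −0.14 to 0.32 without 1 mouse, and Ucp1 at −0.27 to 0.91. The count of all genes called was 1676, with 2599 under quality weights, 658 at an adjusted p below 0.01 and 1132 to 2367 without 1 mouse. Of the lipid and hormone list, 11 (28.2%) were called by DESeq2, all lower, against 15.8% of all genes. That list had 3 called at 0.01 and 4 to 9 (10.3% to 23.1%) without 1 mouse. Of the brown list, 6 (31.6%) were called under quality weights, 4 higher and 2 lower, against 17.8% of all genes. The brown list had 1 called at 0.01 and 2 to 4 (10.5% to 21.1%) without 1 mouse, the 4 without young replicate 1. Without 1 mouse, 7.67% to 16.1% of all genes were called. The cause of these moves was not tested.

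The old minus young difference in deviation from the group median (log2) was −0.34 to 0.0757 for Adipoq, −0.54 to 0.14 for Lep, −0.010 to 0.10 for Plin4, −0.43 to 0.0283 for Cidec, −0.32 to 0.0355 for Fabp4, −0.21 to 0.0850 for Lpl and −0.18 to 0.17 for Cidea without 1 mouse, of which those other than Plin4 were positive only without young replicate 1 and Plin4 was negative only without old replicate 2. The members passing an unadjusted p of 0.05 numbered 0 to 2. They were 2, Plin1 and Pparg, without young replicate 2, 3 or 5. With a young library left out, the young median falls between libraries, so lower p-values are possible than with all libraries.

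With the replicate block 1261 genes and no member were called. Deviations of same-numbered mice correlated at −0.294 to 0.129, so the numbers were not taken as pairs. In alternatives chosen after seeing the data, 0 members had groups that did not overlap with TMM or with library size alone, against 1. Depth limits Lep most, at 10.3 normalized counts in its lowest library.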

Other observations

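Several lipogenic genes were low in 1 old library in which Adipoq was high. In old replicate 2, where Adipoq was the third highest of 10 libraries at 1021 normalized counts, Fasn at 2596, Scd1 at 4726, Elovl6 at 126, Acaca at 949, Acly at 2391 and Pnpla3 at 30.5 were the lowest of all 10 libraries, whereas Thrsp and Dgat2, also of lipid synthesis, were lower in old replicate 1. In the same library Cd36, a fatty acid transporter, at 3361, Aqp7, a glycerol channel, at 185, Plin5, a droplet protein of oxidative cells, at 53.4 and Mlxipl, a sugar-sensing factor, at 238 were second only to young replicate 1. Over the list of 39 tested lipid and hormone genes, old replicate 2 was the lowest library for 7 genes (17.9%), against 15.2% of all genes tested. Gpihbp1, Cd36 and Ucp1 were also high in this library. These genes were picked after their values were seen, with 1 library behind the pattern and no test.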
